A study of Mus musculus with 6 samples.

Results

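Trophoblast regulators and simple keratins were followed in mouse embryonic stem cells labelled as lacking Max. The set holds 10 genes out of 56689 identifiers listed per library: 6 transcription factors (Cdx2, Eomes, Elf5, Gata3, Gata2 and Hand1) and 4 keratins (Krt7, Krt8, Krt18 and Krt19). They were picked by name, each from the row of its Ensembl identifier through the GENCODE M21 annotation. The tested cells were labelled Max-KO with the genotype Max-/- (3 libraries) and the cells they were set against were wild type (WT, 3 libraries), all of the strain C57BL/6. RNA came from bulk samples, not single cells. The labels do not say how many clones were used, in which medium they grew or whether a group's samples were separate cultures, and a p-value here covers only the spread among the 3 samples of each group.

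The trophectoderm is the outer layer of the blastocyst and gives rise to the trophoblast of the placenta, whereas embryonic stem cells derive from the inner cell mass. CDX2 and EOMES are transcription factors of early trophectoderm, ELF5 and GATA3 act with them in trophoblast stem cells, GATA2 works beside GATA3 in trophoblast, and HAND1 is needed for trophoblast giant cells. Keratins form filaments from a type I and a type II partner: KRT8 (type II) pairs with KRT18 or KRT19 (both type I) in simple epithelia, the trophectoderm among them, and KRT7 is a further type II keratin of simple epithelia. None of these genes is particular to trophoblast. Eomes and Hand1 also act in mesoderm, Gata2 and Gata3 in blood, and Krt8, Krt18 and Krt19 in endoderm and other epithelia. MAX dimerizes with MYC proteins, which need it to bind DNA, and it also belongs to the repressor complex PRC1.6.

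Levels are given in FPKM, which corrects fragment numbers for transcript length and library, so different genes can be set side by side. Summed FPKM was 645169 to 658361 in Max-KO libraries and 743406 to 774405 in WT libraries. Steps in the low values correspond to an estimated 20.9 to 28.6 M fragments (M, mega) in Max-KO libraries and 22.3 to 24.9 M in WT libraries. The targeted gene, Max, was listed at 35.8, 39.6 and 43.4 FPKM in Max-KO and at 41.6, 50.2 and 42.3 FPKM in WT, with overlapping groups (log2 difference -0.17 ± 0.10 SE, limma adjusted p = 0.168; -0.29 and adjusted p = 0.0325 with median-ratio scaling, 0.056 with TPM). The sources used here do not give the deleted part of Max, and a value for the whole gene may not show its loss. The genotype labels therefore stand unchecked, and Max-KO and WT below mean the libraries so labelled. Of the embryonic stem cell markers, Pou5f1 and Sox2 were high in both groups. Pou5f1 was at 992 ± 34.7 FPKM in Max-KO and 891 ± 45.4 FPKM in WT and Sox2 at 330 ± 21.1 and 227 ± 11.01 FPKM in the same order (SD, n = 3 each). The list of 10 such markers was not level between the groups. In it 7 were higher and 1 lower (limma adjusted p under 0.05), where 43.0% of all genes tested were higher and 23.2% lower. Its median log2 difference was 0.50, against 0.21 over all genes tested.

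Among the members, 3 transcription factors that were low in WT cells had the largest differences: Gata3, Hand1 and Elf5. The RefSeq promoter table (GRCm38.p6) holds windows for 8 of the 10 members, all but Hand1 and Krt19. The upstream 250 bases are shown for the called transcription factors found there (for Elf5, the downstream of its annotated start sites), since these genes were higher together. Each is read 5′ to 3′ on the gene's own strand and ends at the base before the RefSeq start. The Gata3 stretch lies in an intron of longer GENCODE transcripts of the gene and within an exon of the antisense gene Gm13256, which was listed at 0 in every library. Capitals mark CG dinucleotides, the sites of DNA methylation.
Gata3 (chr2:9878601-9878850, minus strand): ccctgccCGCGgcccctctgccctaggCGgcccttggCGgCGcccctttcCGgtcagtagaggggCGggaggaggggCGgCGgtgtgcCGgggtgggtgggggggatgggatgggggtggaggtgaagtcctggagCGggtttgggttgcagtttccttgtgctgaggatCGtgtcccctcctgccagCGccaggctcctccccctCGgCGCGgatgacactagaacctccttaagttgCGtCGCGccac
Elf5 (chr2:103423818-103424067, plus strand): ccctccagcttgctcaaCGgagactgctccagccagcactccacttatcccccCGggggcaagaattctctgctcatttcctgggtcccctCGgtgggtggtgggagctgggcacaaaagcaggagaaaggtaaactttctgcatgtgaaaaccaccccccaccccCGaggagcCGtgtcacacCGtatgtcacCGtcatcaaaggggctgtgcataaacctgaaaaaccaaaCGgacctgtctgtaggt
Eomes (chr9:118477939-118478188, plus strand): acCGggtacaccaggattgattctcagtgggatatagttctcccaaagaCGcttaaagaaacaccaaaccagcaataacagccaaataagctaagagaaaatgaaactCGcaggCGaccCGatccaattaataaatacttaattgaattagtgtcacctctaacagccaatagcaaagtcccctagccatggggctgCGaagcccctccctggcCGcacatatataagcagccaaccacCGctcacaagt

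The windows differ in CpG content. The stretches above hold 19 CG dinucleotides for Gata3, 8 for Elf5 and 8 for Eomes. Over the full window of 300 bases (250 before and 50 after the start) the count was 22 for Gata3 and 10 for each of Elf5 and Eomes, against a median of 7 over all 32851 windows in the table. A further Elf5 start lies upstream, and its window held 3. The remaining members with a window ranged from 6 in Krt8 to 32 at the upstream Gata2 start, with 17 in Krt18, 18 in Cdx2 and 21 in Krt7.

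Short motifs were searched on both strands of the 10 member windows. The E-box bound by MYC and MAX, CACGTG, was found in 0 of 10 member windows and in 7.15% of all windows. The core of E2F sites, TTCCCGC, was also in 0 of 10 (4.60% of all windows), as was a T-box site, TCACACCT (1.28% of all windows). The GC box of SP1, GGGCGG, was in 4 of 10 (Gata3, Krt7 and both Gata2 windows), against 35.7% of all windows, and its matches overlapped no other motif searched. The GATA site AGATAA was found at Krt8 alone among the members, against 11.2% of all windows. The exact letters TATAAA, a form of the TATA box, were likewise at Krt8 alone (13.6% of all windows). A match on each strand was found there, and these overlap, with first bases at -3 and -1 relative to the start. Other forms of the TATA box were not searched, and the Eomes stretch above holds tatataa near its end. A match of this kind describes the letters only.

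Of the 10 members, 9 passed the filter, which asked for a mean of 1 FPKM or more in Max-KO or in WT. In the fit across all 14661 genes that passed (limma on log2(FPKM + 1), Benjamini-Hochberg adjusted p under 0.05), 6 members were higher in Max-KO, against 43.0% of all genes tested, and 1 was lower, against 23.2% of all (7 in either direction, against 66.2%). The higher ones were Gata3, Hand1, Elf5, Eomes, Krt7 and Krt18, and the lower one was Krt19. Gata3, Elf5 and Krt7 had a mean under 1 FPKM in WT and passed only through Max-KO, which set their direction, so the counts are a description. Max-KO and WT libraries did not overlap for 8 tested members that were higher (46.3% of all genes) and for 1 that was lower (25.7% of all genes). Gata2 and Krt8 missed the threshold and Cdx2 was not tested. The median log2 difference of the 9 members was 0.45, the value of Krt7, against 0.21 over all genes tested. It too is a description, since it includes Gata3, Elf5 and Krt7. The members' median was 0.67 with TPM (0.43 over all genes) and 0.16 under quantile normalization (-0.017 over all genes). Of all calls, 64.9% were higher, and this share was 77.7% with TPM and 46.7% under quantile normalization, so small differences depend on the scaling.

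**Figure D1:**
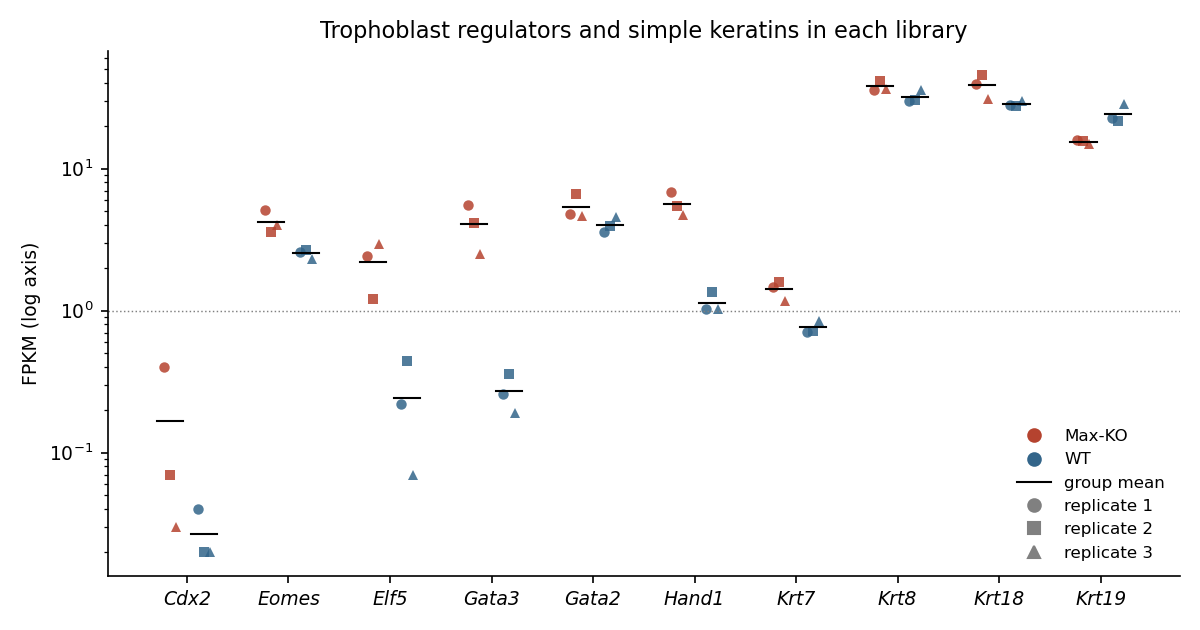
FPKM of the 10 genes on a log axis, with Max-KO libraries (red, left) and WT libraries (blue, right) of each gene, a marker shape per replicate number, black bars for group means and a dotted line at 1 FPKM. Gata3, Hand1 and Elf5 are separated most widely between the groups, Cdx2 stays under 1 FPKM in every library, and Krt19 is the only gene here whose Max-KO libraries all lie below the WT libraries.

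Gata3 (ENSMUSG00000015619; GRCm38 chromosome 2, 9857078 to 9890034, minus strand) had the largest difference of the set. Its level was 5.57, 4.12 and 2.50 FPKM in Max-KO 1 to 3, against 0.26, 0.36 and 0.19 FPKM in WT 1 to 3. The lowest Max-KO library lay well above the highest WT library, although Max-KO 1 and Max-KO 3 were themselves more than 2-fold apart. The group means were 4.06 ± 1.54 FPKM in Max-KO and 0.270 ± 0.0854 FPKM in WT (SD, n = 3 each), a ratio of 15.05, and the log2 difference was 1.95 ± 0.23 (SE, limma adjusted p = 0.000286). On this scale low values are compressed, and with a pseudocount of 0.1 the log2 difference was 3.45. The WT values stood for an estimated 13.03 to 23.8 fragments per library, and the Max-KO values for 211 to 407. Where genes of a culture differ in this way, a larger number of cells with the transcript and more transcript per cell cannot be told apart.

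Hand1 (ENSMUSG00000037335; chromosome 11, 57828705 to 57832818, minus strand) encodes a basic helix-loop-helix factor of trophoblast giant cells and of the heart. It was listed at 6.78, 5.46 and 4.68 FPKM in Max-KO, against 1.02, 1.35 and 1.02 FPKM in WT. The groups were far apart, with a ratio of means of 4.99 (log2 difference 1.63 ± 0.15 SE, limma adjusted p = 8.73e-05). Hand1 was the only member at 1 FPKM or more in WT that differed by more than 2-fold.

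Elf5 (ENSMUSG00000027186; chromosome 2, 103411688 to 103450989, plus strand) encodes an ETS-family factor that keeps trophoblast stem cells in their state, and its promoter is known as methylated in embryonic stem cells. It was at 2.43, 1.20 and 2.94 FPKM in Max-KO, against 0.22, 0.44 and 0.07 FPKM in WT. The groups did not overlap, and the spread within both was wide: 2.19 ± 0.894 FPKM in Max-KO and 0.243 ± 0.186 FPKM in WT (SD, n = 3 each). The log2 difference was 1.33 ± 0.24 (SE, limma adjusted p = 0.00219), and it was 0.72 under quantile normalization (limma adjusted p = 0.0464) and 2.80 with a pseudocount of 0.1.

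Eomes (ENSMUSG00000032446; chromosome 9, 118478212 to 118486132, plus strand), a T-box factor, was listed at 5.10, 3.58 and 3.97 FPKM in Max-KO, against 2.60, 2.65 and 2.32 FPKM in WT. All 3 Max-KO libraries were above all WT libraries, with a ratio of means of 1.67 (log2 difference 0.56 ± 0.13 SE, limma adjusted p = 0.00824). The call was lost under quantile normalization (0.14, limma adjusted p = 0.396).

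Gata2 (ENSMUSG00000015053; chromosome 6, 88193891 to 88207032, plus strand), the zinc finger factor closest to GATA3 among the members, did not pass the test. It was at 4.80, 6.58 and 4.66 FPKM in Max-KO, against 3.60, 3.94 and 4.54 FPKM in WT. The lowest Max-KO library exceeded the highest WT library by a small margin, and Max-KO 2 stood above the other libraries. The log2 difference was 0.33 ± 0.14 (SE; 95% interval -0.01 to 0.67, limma adjusted p = 0.0816), it passed after rescaling to TPM (0.55, limma adjusted p = 0.0144) and it was -0.060 under quantile normalization.

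Cdx2 (ENSMUSG00000029646; chromosome 5, 147300805 to 147307270, minus strand), the homeobox factor at the head of the trophectoderm programme, was at 0.40, 0.07 and 0.03 FPKM in Max-KO and at 0.04, 0.02 and 0.02 FPKM in WT. The groups overlapped, and only Max-KO 1 stood out. These levels stood for an estimated 19.8, 2.93 and 1.71 fragments in Max-KO 1 to 3 and 1.998, 0.895 and 0.928 fragments in WT 1 to 3. A small difference at such levels would not have been detectable outside Max-KO 1. A rise to the level of the other transcription factors would have been seen. Cdx2 was in every library below the lowest Max-KO value of Elf5, 1.20 FPKM or an estimated 75.3 fragments. With no filter the log2 difference was 0.17 (limma adjusted p = 0.325).

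**Figure D2:**
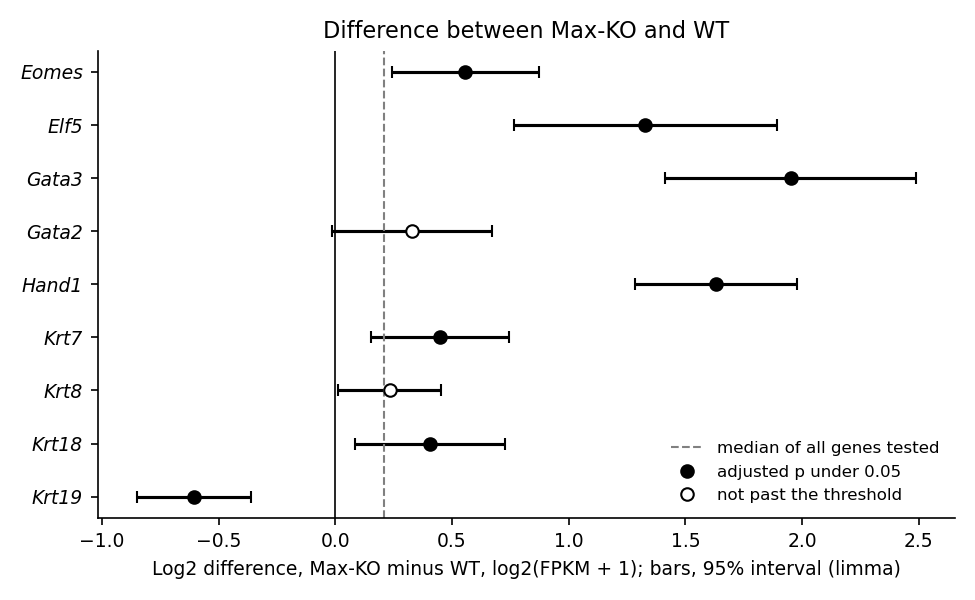
Log2 differences (Max-KO minus WT) of the 9 tested genes with 95% intervals from limma; filled points passed an adjusted p of 0.05, open points did not, and the dashed line is the median of all genes tested (0.21). Gata3, Hand1 and Elf5 lie far to the right of that line, Krt8 lies almost on it, and Krt19 lies to the left of 0.

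The keratins moved less than Gata3, Hand1 and Elf5, and not in 1 direction. Krt8 (ENSMUSG00000049382; chromosome 15, 101996698 to 102004482, minus strand) was at 35.8, 41.5 and 36.1 FPKM in Max-KO, against 29.8, 30.6 and 35.8 FPKM in WT. Max-KO 1 (35.83 FPKM) and WT 3 (35.80 FPKM) were all but equal. The log2 difference was 0.23 ± 0.09 (SE; 95% interval 0.01 to 0.45, limma adjusted p = 0.0610), 0.025 above the median of all genes. It passed without WT replicate 3 (0.31, limma adjusted p = 0.0149) and after rescaling to TPM (0.46, limma adjusted p = 0.00258).

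Krt18 (ENSMUSG00000023043; chromosome 15, 102028180 to 102032027, plus strand), the type I partner of Krt8, was at 39.1, 45.8 and 30.7 FPKM in Max-KO, against 27.8, 27.5 and 30.1 FPKM in WT. Max-KO 1 and Max-KO 2 were clearly above the WT libraries, while Max-KO 3 barely cleared WT 3. The log2 difference was 0.41 ± 0.14 (SE, limma adjusted p = 0.0322). The call was lost without WT replicate 1, 2 or 3 (limma adjusted p = 0.0815, 0.0841 and 0.0521), without Max-KO replicate 1 or 2 (0.0879 and 0.0818), with no filter (0.0674), and under median-ratio scaling (0.104) and quantile normalization (0.0878).

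Krt8 and Krt18 are neighbours, 23697 bases apart and transcribed away from each other, and together with Krt7 they belong to the keratin cluster of chromosome 15. The ratio of Krt8 to Krt18 was 0.917, 0.906 and 1.17 in Max-KO and 1.07, 1.11 and 1.19 in WT, with overlapping groups. Of the other protein-coding genes within 100 kb, Krt4, Krt78 and Krt79 were under 0.5 FPKM in every library. The translation factor gene Eif4b was lower in Max-KO, at 124 ± 2.93 FPKM, against 263 ± 10.7 FPKM in WT (SD, n = 3 each, limma adjusted p = 6.80e-06). Tns2, an adhesion protein gene, was lower as well (log2 difference -1.12, limma adjusted p = 0.00869), and Spryd3 was higher (0.56, limma adjusted p = 0.00326; 0.29 and adjusted p = 0.0717 under quantile normalization).

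Krt19 (ENSMUSG00000020911; chromosome 11, 100140810 to 100148665, minus strand), the small type I keratin without a tail domain, fell. It was at 15.8, 15.6 and 14.9 FPKM in Max-KO, against 22.5, 21.8 and 28.2 FPKM in WT. The Max-KO libraries were close together and all below the WT libraries, with a ratio of means of 0.639 (log2 difference -0.61 ± 0.10 SE, limma adjusted p = 0.00178). Krt19 stood at 0.404, 0.341 and 0.486 of the Krt18 level in Max-KO, against 0.810, 0.791 and 0.939 in WT, so the share of Krt19 beside Krt18 did not overlap between the groups.

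Krt7 (ENSMUSG00000023039; chromosome 15, 101411043 to 101430313, plus strand) was the lowest of the 4, at 1.46, 1.60 and 1.16 FPKM in Max-KO, against 0.71, 0.72 and 0.85 FPKM in WT. The groups did not overlap (log2 difference 0.45 ± 0.12 SE, limma adjusted p = 0.0157). The call was lost without WT replicate 1 or 2 (limma adjusted p = 0.0540 and 0.0512), and the difference was -0.11 under quantile normalization (limma adjusted p = 0.520).

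In the order of levels, Krt8, Krt18 and Krt19 stood at the top in both groups. In Max-KO the order by mean was Krt18, Krt8, Krt19, Hand1, Gata2, Eomes, Gata3, Elf5, Krt7 and Cdx2. Libraries overlapped between Krt18 and Krt8 and between each neighbouring pair of the run from Hand1 to Krt7, whereas Krt19 and Cdx2 stood clear of their neighbours. In WT the order was Krt8, Krt18, Krt19, Gata2, Eomes, Hand1, Krt7, Gata3, Elf5 and Cdx2. There Krt8 overlapped with Krt18, Krt18 with Krt19, and Gata3 with Elf5, and the other neighbours were apart. Cdx2 aside, the transcription factors lay within 1.20 to 6.78 FPKM in Max-KO and within 0.07 to 4.54 FPKM in WT.

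Genes that overlap the members were low. The antisense or same-strand genes annotated across Eomes, Gata3, Krt7 and Krt8 were at 0.27 FPKM or less in Max-KO and 0.65 FPKM or less in WT, the highest being Gm33460, antisense at the end of Eomes, in WT 3. The processed pseudogene Krt8-ps was at 0.06 FPKM or less in every library. The sources used here do not say whether the libraries kept strand.

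**Figure D3:**
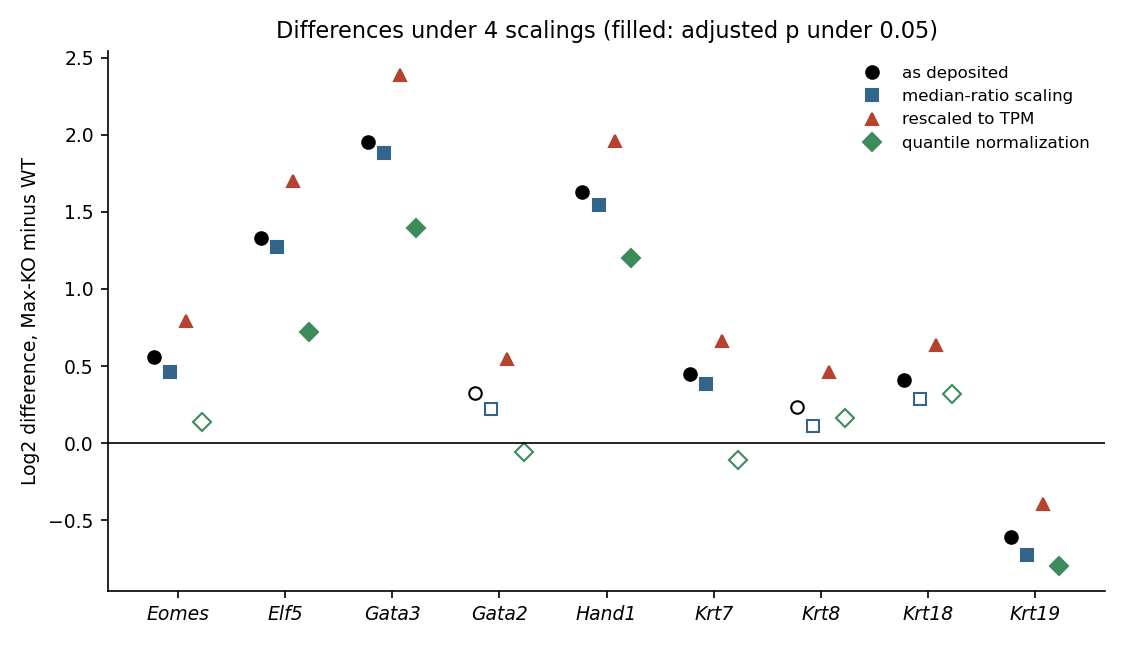
Log2 differences (Max-KO minus WT) of the 9 tested genes under the deposited FPKM values and 3 other scalings; filled symbols passed an adjusted p of 0.05. Gata3, Hand1, Elf5 and Krt19 pass under each of the 4, while Gata2 and Krt7 fall below 0 under quantile normalization.

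The wider keratin family was read for comparison. Of 54 keratin genes in the files, 9 were listed at 0 in all libraries and 11 passed the filter, of which 5 rose and 2 fell, shares near those over all genes (43.0% and 23.2%). The most abundant were not simple keratins but Krt42 and Krt17, close type I paralogs that share sequence and whose split of reads is uncertain. Krt42 fell to 72.3 ± 15.7 FPKM in Max-KO, against 110.1 ± 6.95 FPKM in WT (SD, n = 3 each, log2 difference -0.62, limma adjusted p = 0.00758). Krt17, a keratin of stratified epithelium under stress, was at 44.5, 44.5 and 87.6 FPKM in Max-KO and 65.1, 64.2 and 79.6 FPKM in WT. Max-KO 3 lay above all WT libraries and the other Max-KO libraries below them, and without Max-KO replicate 3 the log2 difference passed (-0.63, limma adjusted p = 0.00368; -0.31 and adjusted p = 0.363 with it). Krt14, Krt16 and Krt13, type I keratins of stratified epithelia, rose: Krt14 was at 5.01 ± 0.220 FPKM in Max-KO and 0.947 ± 0.175 FPKM in WT (SD, n = 3 each, log2 difference 1.63, limma adjusted p = 2.82e-05). Krt14 passed the filter only through Max-KO. Krt10 and Krt20 did not pass the test (log2 differences -0.20 and -0.33), but both passed under some settings. Krt20 passed without WT replicate 2 (-0.44, limma adjusted p = 0.0436), with median-ratio scaling (-0.39, 0.0445), without trend and robust moderation (0.0427) and with quantile normalization (-0.93, 0.00137), where Krt10 passed too (-0.69, 0.0123).

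Krt7, Krt8, Krt18 and Krt19 made up 41.3, 45.2 and 29.0% of summed keratin FPKM in Max-KO 1 to 3, against 30.8, 31.1 and 31.4% in WT. The lower value of Max-KO 3 went with its high Krt17 and Krt42 and low Krt18. Type I keratins far exceeded type II in sum, at 183 to 245 FPKM, against at most 46.1 FPKM of type II, in Max-KO, and at 227 to 265 FPKM, against at most 37.6 FPKM of type II, in WT. Krt8 alone gave 88.8 to 90.01% of the type II sum in Max-KO and 93.8 to 95.7% in WT.

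**Figure D4:**
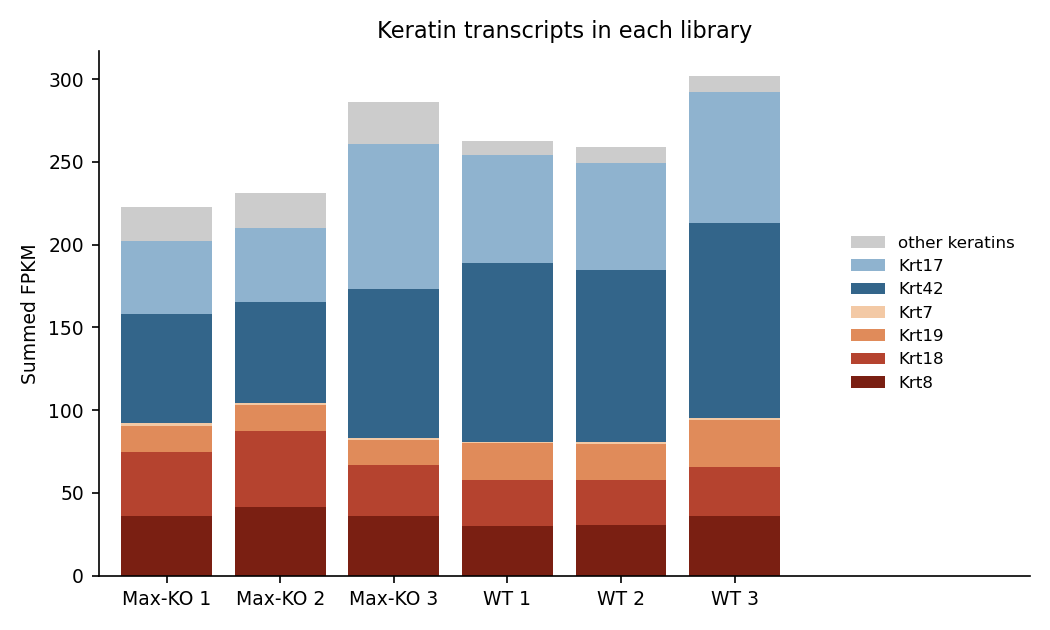
Summed FPKM of keratin transcripts in each library, stacked by gene, with Max-KO libraries left of WT libraries. Krt42 and Krt17 (blue) make 45.6 to 62.1% in Max-KO and 65.0 to 66.0% in WT, the orange part for Krt19 is smaller in each Max-KO library, and Krt17 and Krt42 are both higher in Max-KO 3 than in Max-KO 1 and 2.

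Genes known beside these in trophoblast were read from lists. Of 21 other trophoblast regulators 17 were tested, and 10 rose and 3 fell, where 43.0% of all genes rose and 23.2% fell. The median log2 difference of those tested was 0.79, against 0.21 over all genes. It was 0.48 for the whole list with no filter (0.063 over all genes) and 0.42 under quantile normalization (-0.017 over all genes). Cited1, a transcriptional coactivator of the placenta, was at 15.9 ± 0.428 FPKM in Max-KO and 1.16 ± 0.208 FPKM in WT (SD, n = 3 each, log2 difference 2.97, limma adjusted p = 2.76e-06). Id2, an inhibitor of helix-loop-helix factors, was at 131 ± 16.4 and 29.3 ± 0.603 FPKM in Max-KO and WT (2.12, limma adjusted p = 4.41e-06). The TEAD-family activator of Cdx2, Tead4, rose (log2 difference 0.79, limma adjusted p = 0.000244), as did Tfap2a, Esx1, Klf5, Ets2, Hopx and Ovol2. Those that fell were Ascl2, needed for spongiotrophoblast (2.32 ± 0.854 FPKM in Max-KO and 4.61 ± 0.448 FPKM in WT, limma adjusted p = 0.00845), Dlx3 and Cdh3. Tfap2c, which acts with Gata3 in trophectoderm, did not pass (22.5 ± 3.79 and 27.7 ± 0.613 FPKM, limma adjusted p = 0.0536). Tfap2a passed the filter only through Max-KO, and Dlx3 only through WT. The calls of Hopx and Ovol2 were lost under quantile normalization (limma adjusted p = 0.0913 and 0.282).

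Products of differentiated trophoblast were at or near 0. Of 21 genes in that list 16 had means under 1 FPKM in both groups, and the giant cell hormone Prl3d1 and the spongiotrophoblast markers Tpbpa and Tpbpb were listed at 0 in all 6 libraries. Psg17, a pregnancy-specific glycoprotein, was at 0.92, 0.57 and 1.07 FPKM in Max-KO and listed at 0 in each WT library; it was not tested. Of the 5 genes tested, Phlda2, Cdkn1c and Rhox6 fell and Peg10 rose (median -0.62; -0.025 over the whole list with no filter), all of them genes that these embryonic stem cells also expressed in WT. Phlda2, an imprinted gene that restrains placental growth, was at 8.77 ± 0.559 FPKM in Max-KO and 103 ± 8.08 FPKM in WT (SD, n = 3 each, log2 difference -3.41, limma adjusted p = 6.86e-07).

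The Hippo pathway sets the place of Cdx2 in the embryo through the coactivators YAP1 and WWTR1 and the TEAD factors. All 18 genes of that list were tested, and 15 rose and 1 fell, beside the 43.0% and 23.2% of all genes. Tead4 is counted both here and among the other trophoblast regulators. The median was 0.56, and 0.31 under quantile normalization. The Hippo kinase gene Stk4 lost its call under both median-ratio scaling and quantile normalization (limma adjusted p = 0.457 and 0.978) and when any library other than WT 3 was left out (0.0540 to 0.0801). Its paralog Stk3 lost its call under these scalings (0.0561 and 0.321) and without Max-KO replicate 1 or 3 (0.0551 and 0.0543), and Lats1, Tead3 and Amotl1 under quantile normalization (0.697, 0.388 and 0.207). The kinase gene Taok1 was at 33.5 ± 0.793 FPKM in Max-KO and 14.2 ± 3.91 FPKM in WT (SD, n = 3 each, log2 difference 1.22, limma adjusted p = 0.00123). Lats2 (1.15, limma adjusted p = 0.00852) and Mob1b (1.08, limma adjusted p = 0.000542), which restrain YAP1, rose beside Wwtr1 itself (0.86, limma adjusted p = 0.000181). Yap1 was at 47.9 ± 1.46 and 41.0 ± 0.789 FPKM in Max-KO and WT (0.22, limma adjusted p = 0.00789), a call lost under median-ratio scaling (0.10, limma adjusted p = 0.159). Tead2 was the gene that fell, to 23.6 ± 3.35 FPKM in Max-KO, against 45.7 ± 6.00 FPKM in WT (limma adjusted p = 0.000574).

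Keratin filaments attach to desmosomes and to plakins, and of 16 such genes 12 were tested, with 5 higher and 4 lower (43.0% and 23.2% of all genes). The median was 0.27, with a range of 0.11 to 0.36 when a library was left out, and it was 0.028 under quantile normalization. Dsp, the desmoplakin that anchors keratins, was at 7.35 ± 0.940 FPKM in Max-KO and 2.54 ± 0.301 FPKM in WT (SD, n = 3 each, log2 difference 1.24, limma adjusted p = 0.000145), and the plectin gene Plec at 32.4 ± 3.07 and 16.1 ± 0.153 FPKM (0.96, limma adjusted p = 6.32e-05). Dsg2, Tchp and Dst rose as well, and the call of Dst was lost without Max-KO replicate 1 or 2 (limma adjusted p = 0.0753 and 0.0613) and under median-ratio scaling (0.0581). Under quantile normalization Dsg2 (0.20) and Tchp (0.24) were not called (limma adjusted p = 0.112 for each). Pkp2, Evpl, Pkp4 and Jup were lower, Pkp2 at 12.2 ± 1.5 and 18.5 ± 1.02 FPKM in Max-KO and WT (-0.57, limma adjusted p = 0.00191). The difference of Jup, -0.19, was 0.043 after rescaling to TPM and lost its call without Max-KO replicate 2 or 3 (limma adjusted p = 0.113 and 0.0778) and without WT replicate 1 or 3 (0.0677 and 0.0603). Pkp4 was not called after rescaling to TPM (-0.045, limma adjusted p = 0.568), nor Evpl without WT replicate 3 (-0.43, limma adjusted p = 0.0517). Epithelial junction genes had 8 higher and 7 lower of 22 tested (median 0.080, and -0.041 under median-ratio scaling). Grhl2, a regulator of epithelial genes, was at 13.4 ± 1.51 and 3.93 ± 0.736 FPKM in Max-KO and WT (1.55, limma adjusted p = 9.20e-05), while the tight junction gene Tjp3 was at 3.30 ± 0.987 and 14.1 ± 1.10 FPKM (-1.83, limma adjusted p = 8.90e-05) and the splicing factor gene Esrp1 at 8.82 ± 0.890 and 20.6 ± 1.37 FPKM (-1.14, limma adjusted p = 6.13e-05).

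**Figure D5:**
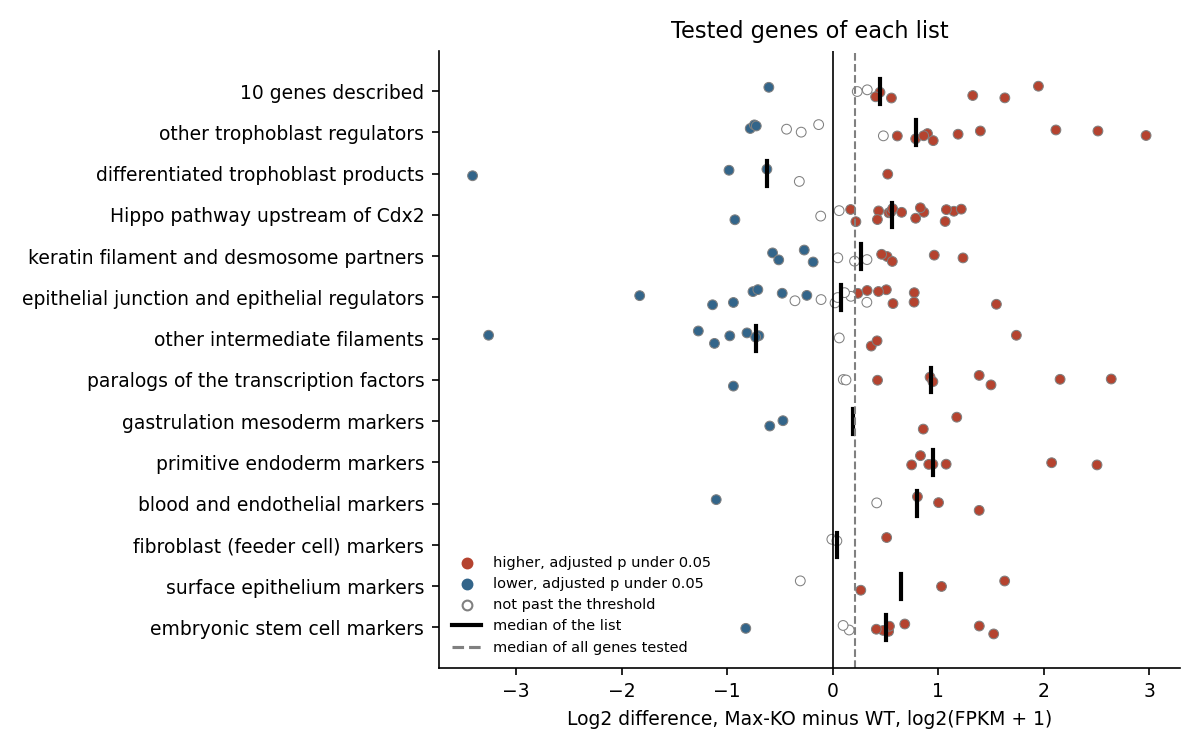
Log2 differences (Max-KO minus WT) of the tested genes of each list, with a point per gene (red higher and blue lower at an adjusted p under 0.05, white not past it), a black bar at the list's median and a dashed line at the median of all genes tested (0.21). Other trophoblast regulators and primitive endoderm markers lie mostly to the right of the dashed line, and differentiated trophoblast products mostly to the left.

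Because the members are also used by other lineages, markers of those lineages were read beside them. In the primitive endoderm list 7 of 7 tested genes rose (43.0% of all genes), 3 of them (Gata4, Sox17 and Pdgfra) passing the filter only through Max-KO, and the summed level of all 15 was 91.9 to 107.9 FPKM in Max-KO and 34.5 to 39.4 FPKM in WT. Most of that sum was Lama1, Col4a1 and Col4a2. Ttr was listed at 0 in 5 of 6 libraries, Sox17 was at 1.70, 1.76 and 0.36 FPKM in Max-KO, and the Sox17 call did not survive leaving out Max-KO replicate 1 or 2 (limma adjusted p = 0.0751 and 0.0746) or WT replicate 1 or 2 (0.0664 and 0.0577). Under quantile normalization the calls of Gata4, Sox17 and Dab2 were lost (limma adjusted p = 0.168, 0.368 and 0.0560), and the list's median was 0.39, against 0.95 on the deposited scale. In the gastrulation mesoderm list 4 of 14 genes were tested, each passing through 1 group only, with Tbx20 and Mesp2 higher and Kdr and Wnt3a lower, and the sum was 8.61 to 9.53 FPKM in Max-KO and 5.64 to 5.86 FPKM in WT. The Wnt3a call was lost without Max-KO replicate 2 (limma adjusted p = 0.0552) and without WT replicate 1 or 2 (0.0721 and 0.0747), and that of Mesp2 under quantile normalization (0.152). Blood and endothelial markers had 3 of 5 tested genes higher (Gata1, Tek and Pecam1, against 43.0% of all genes). Etv2, which passed the filter only through WT, was lower. The sum of all 11 was 103.5 to 117.4 FPKM in Max-KO and 58.0 to 63.2 FPKM in WT. Most of it was Pecam1 (means of 70.9 FPKM in Max-KO and 40.2 FPKM in WT) and Tek (24.35 and 11.64 FPKM). Of the 11 genes, 7 had means under 1 FPKM in Max-KO, and Hba-x was listed at 0 throughout. Fibroblast markers, a sign of feeder cells, summed to 10.4 to 13.2 FPKM in Max-KO and 10.4 to 10.7 FPKM in WT, with Col1a1 higher as the only call of 3 tested (lost under quantile normalization, limma adjusted p = 0.632). Surface epithelium markers had 3 of 4 tested genes higher (Krt14, Perp and Sfn), with a sum of 234 to 295 FPKM in Max-KO and 207 to 243 FPKM in WT, and the call of Sfn was lost without Max-KO replicate 3 (limma adjusted p = 0.0706) and without WT replicate 1 or 2 (0.0685 and 0.0695), and under median-ratio scaling (0.182). Most of the surface epithelium sum was Sfn and Krt17. The part of cells of these lineages in the levels of the members was not tested.

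The pattern of Krt8 over the 6 libraries was compared with that of every tested gene outside the members, by Pearson correlation of log2(FPKM + 1), as a description that includes the difference between the groups. The most alike were Gm12854 (r = 0.992), Lipe (0.986), Paqr4 (0.976), Trp53bp1 (0.975) and H2-DMb1 (0.974). None of these 5 is a keratin, but Krt7, Krt18 and Krt19 were left out of the ranking with the other members. Among the members, Gata2 was the most like Krt8 (r = 0.965). Gm12854, a processed pseudogene at 0, 0 and 1.05 FPKM in WT 1 to 3, passed the filter only through Max-KO. Trp53bp1 alone was called, with a log2 difference of 0.20 (limma adjusted p = 0.0428), and that call was lost when any library other than WT 3 was left out (limma adjusted p = 0.0709 to 0.134).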

How the data were processed

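RNA-seq of 3 Max-KO and 3 WT samples was analysed. Per the labels, RNA was extracted with Trizol and libraries were made with an Illumina TruSeq kit. The deposited values are FPKM, listed by the authors per Ensembl identifier with 2 decimals and no header; the unit was inferred from the values. Per the submitters' processing notes, build GRCm38.p6 was used, and HISAT2 2.1.0, DESeq 1.26.0, RSEM and FastQC are named there without their roles. Scaling to each library's fragments means that a gain in abundant genes lowers the values of others. Symbols and coordinates came from GENCODE M21 for 55450 of 55536 Ensembl identifiers, and 1153 assembled loci were left out of the test.

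Genes whose mean reached 1 FPKM in Max-KO or in WT were fitted as log2(FPKM + 1) in R 4.3.3 by limma 3.58.1 (moderation with trend and robust settings, 2-sided, genotype as the only factor), with Benjamini-Hochberg adjustment over all 14661 genes. Differences are Max-KO minus WT. The fit was also run on simulated data in which few genes changed and none had the lowest means. That run does not check calls of low genes or calls in data where most genes differ. Depth was estimated from steps in the low values of genes with 1 transcript: 76.6 to 82.5% of these lay within 0.15 of a whole multiple. Fragments per gene use the longest transcript and are approximate. Python 3.11.15 and pandas 2.3.3 served for the tables.

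The members and lists were chosen with earlier results of these data known. Genes named were the members, up to 4 called genes per list with 1 in the opposite direction, genes that account for counts of 5 or fewer, keratins at 1 FPKM or more, neighbours of Krt8 and Krt18 and the 5 genes most like Krt8; others, such as Psg17, Tead4, Tfap2c, Wwtr1 and Yap1, were picked after their values were seen. A gene that the rule names is not reported here. Alternatives were another pseudocount, no filter, 3 other scalings, limma without trend and robust moderation, the replicate number as a block, and leaving out each library.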

Additional observations from a re-analysis of the deposited data

How the results depend on the processing

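Leaving out each library in turn kept 4 to 6 members called higher and 1 called lower, and 8865 to 9420 genes called in all, against 9703. Under quantile normalization 3 members were called higher (Gata3, Hand1 and Elf5), against 6, and the difference turned for Gata2 (-0.060), Krt7 (-0.11), Lipe (-0.17), Paqr4 (-0.10) and Elf4 (-0.041). With TPM it turned for Max (0.056) and Jup (0.043); the cause was not tested. The median of all genes was 0.099 under median-ratio scaling, 0.43 with TPM and -0.017 under quantile normalization, against 0.21. Gata3, Hand1, Elf5 and Krt19 kept direction and call under all 13 alternatives, with log2 differences of 1.39 to 3.45, 1.20 to 2.22, 0.72 to 2.80 and -0.80 to -0.39. Gata3 and Elf5 were let into the test by their Max-KO mean alone, so wherever the filter applied their direction was set beforehand. With no filter their log2 differences were 1.95 and 1.33 (limma adjusted p = 0.00105 and 0.00597). For the 113 other genes, 1373 of the values under alternatives kept direction and side of the threshold, 74 lost the call, 16 gained it and 5 turned. The kept direction of those let in by 1 group is likewise a description. List medians turned for fibroblast markers (-0.041 under median-ratio scaling, -0.39 under quantile normalization, -0.020 without Max-KO replicate 1), for gastrulation mesoderm markers (-0.39 under quantile normalization) and for epithelial junction genes (-0.041 with median-ratio scaling, -0.19 with quantile normalization).

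Same-numbered samples did not deviate together (correlations of -0.0006, 0.0160 and 0.0855), so the numbers were not taken as pairs. With the replicate block the members called higher numbered 5, the call of Krt18 being lost (0.41, limma adjusted p = 0.0519), and over all genes 6203 were higher and 3282 lower. The block also ended the calls of Nefm (adjusted p = 0.0524), Wnt3a (0.0538), Stk4 (0.0673) and Trp53bp1 (0.0732). Small differences of Cdx2 could not be read, since it rested on an estimated 0.895 to 2.93 fragments in each library but Max-KO 1.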

Other observations

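Intermediate filaments other than keratins were mostly lower in Max-KO, with 7 of 11 tested genes lower and 3 higher, where 23.2% of all genes were lower and 43.0% higher (median log2 difference -0.73, against 0.21 over all genes). Prph, the peripherin of peripheral neurons, was at 1.67 ± 0.148 FPKM in Max-KO and 24.7 ± 2.80 FPKM in WT (SD, n = 3 each, log2 difference -3.26, limma adjusted p = 2.35e-06). Des, the muscle desmin, was at 1.18 ± 0.384 and 4.22 ± 0.221 FPKM in the same order (-1.27, limma adjusted p = 0.000329), and Ina, a neuronal filament gene, at 14.1 ± 0.230 and 31.8 ± 1.89 FPKM (-1.12, limma adjusted p = 1.51e-05). Vim, Nes, Lmnb1 and Lmnb2 were lower too. Nefm, Nefh and Lmna were higher, Nefm at 20.7, 12.7 and 9.74 FPKM in Max-KO, against 1.71, 3.45 and 6.09 FPKM in WT (1.74, limma adjusted p = 0.00999). The calls of Nefh and Lmna were lost under quantile normalization (limma adjusted p = 0.151 and 0.0702). The sum of Krt8 and Krt18 (74.9, 87.4 and 66.8 FPKM in Max-KO and 57.6, 58.1 and 65.9 FPKM in WT) exceeded Vim in every Max-KO library (41.0, 42.0 and 26.8 FPKM) but not in every WT library (65.8, 54.9 and 71.8 FPKM).

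Relatives of the transcription factors were read as well, and of 10 tested 7 were higher and 1 lower, where 43.0% of all genes were higher and 23.2% lower. The median was 0.94, and it was 0.42 over the whole list with no filter and 0.31 under quantile normalization. Tbx3, a T-box gene like Eomes, was at 32.0 ± 1.43 FPKM in Max-KO and 4.3 ± 0.507 FPKM in WT (SD, n = 3 each, log2 difference 2.64, limma adjusted p = 2.86e-06). Ehf and Elf1, ETS genes like Elf5, had log2 differences of 2.16 and 1.501 (limma adjusted p = 8.26e-05 and 3.37e-05), while Elf3, an epithelial ETS gene at higher levels, was at 26.8 ± 4.59 FPKM in Max-KO and 52.1 ± 3.54 FPKM in WT (-0.94, limma adjusted p = 0.000419). Gata1 and Gata4 were higher (1.39 and 0.95, limma adjusted p = 0.000328 and 0.00148), Gata4 passing the filter only through Max-KO, as Cdx1 and Ehf did. Cdx1 was at 2.57, 2.07 and 0.85 FPKM in Max-KO, against 0.43, 0.30 and 0.60 FPKM in WT (0.92, limma adjusted p = 0.0140), a call lost under quantile normalization (0.32, limma adjusted p = 0.340).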
